A study of Drosophila melanogaster with 3 samples.

Results

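The 932 YL-1 peaks on the X chromosome of Drosophila melanogaster were selected as every region on chromosome X in the authors' dm6 list of peaks that passed the irreproducible discovery rate (IDR), a filter on the agreement of ranks between replicates. They made up 15.6% of the 5986 peaks of that list, and were set against 1096 peaks on 2L, 1219 on 3L and 1479 on 3R. The data came from chromatin immunoprecipitation and sequencing of whole embryos, collected 0 to 24 h after laying, of both sexes, from a transgenic line that carries GFP at the carboxy terminus of YL-1. The antibody was directed against GFP, and the series held 1 group of 3 biological replicates with no other genotype, so arms were compared within each replicate. Whole embryos mix all tissues and stages, and the files do not tell them apart.

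YL-1 is a subunit shared by chromatin complexes built around Domino and Tip60, which place the histone variant H2Av in nucleosomes and acetylate histones near gene starts. Drosophila males carry a single X, and the male-specific lethal (MSL) complex, with its acetyltransferase Mof and the non-coding RNAs roX1 and roX2, raises transcription from it. In females the product of Sex-lethal (Sxl) keeps that complex from forming.

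Sequences around 11 X summits show the kinds of site described in what follows. The first 4 belong to the 4 strongest X peaks, of which only the first lies at the start of a protein-coding gene. Those of roX1 and roX2 stand at the RNA genes of dosage compensation. The windows of nej, Flad1 and orion hold a CA repeat, and those of dod and mRpL16 hold the DNA replication-related element (DRE). These 5 were the strongest promoter peaks with such a match among windows with at most 30 bases of UTR, and apart from mRpL16 they were chosen after their values were seen. Each is 121 bases of the plus strand of the Release 6 (dm6) assembly from RefSeq, centred on the summit, with matches to any of the 7 motifs searched in capitals.
Ugalt (chrX:2703835-2703955): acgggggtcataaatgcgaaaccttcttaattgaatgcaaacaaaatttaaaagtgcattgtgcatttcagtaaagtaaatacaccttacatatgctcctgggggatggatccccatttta
CG4004 (chrX:12751304-12751424): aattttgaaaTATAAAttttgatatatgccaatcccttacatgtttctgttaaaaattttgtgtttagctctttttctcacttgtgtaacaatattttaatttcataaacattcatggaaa
CG32772 (chrX:4910317-4910437): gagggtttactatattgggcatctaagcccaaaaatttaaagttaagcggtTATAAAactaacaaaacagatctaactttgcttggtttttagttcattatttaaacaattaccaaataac
Tlk (chrX:3742174-3742294): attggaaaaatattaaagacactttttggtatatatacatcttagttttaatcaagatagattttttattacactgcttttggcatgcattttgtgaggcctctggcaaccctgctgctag
lncRNA:roX1 (chrX:3862457-3862577): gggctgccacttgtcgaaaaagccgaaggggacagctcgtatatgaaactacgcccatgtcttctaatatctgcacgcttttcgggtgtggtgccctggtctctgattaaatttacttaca
lncRNA:roX2 (chrX:11579049-11579169): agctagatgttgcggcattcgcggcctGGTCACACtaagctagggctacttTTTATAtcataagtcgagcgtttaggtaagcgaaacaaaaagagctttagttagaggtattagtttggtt
nej (chrX:9686615-9686735): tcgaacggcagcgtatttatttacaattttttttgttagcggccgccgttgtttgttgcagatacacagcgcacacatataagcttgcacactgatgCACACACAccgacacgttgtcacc
Flad1 (chrX:12903160-12903280): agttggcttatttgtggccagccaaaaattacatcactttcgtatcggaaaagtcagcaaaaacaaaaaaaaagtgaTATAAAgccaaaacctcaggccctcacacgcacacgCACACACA
orion (chrX:7947082-7947202): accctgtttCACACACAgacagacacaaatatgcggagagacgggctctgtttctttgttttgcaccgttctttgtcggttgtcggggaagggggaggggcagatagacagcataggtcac
dod (chrX:21345250-21345370): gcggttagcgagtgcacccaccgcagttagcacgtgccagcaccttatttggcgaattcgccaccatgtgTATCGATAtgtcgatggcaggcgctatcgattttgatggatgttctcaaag
mRpL16 (chrX:1890132-1890252): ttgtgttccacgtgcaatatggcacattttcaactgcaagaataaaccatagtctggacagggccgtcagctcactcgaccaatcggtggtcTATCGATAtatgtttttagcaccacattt

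The X held fewer peaks for its length than the autosomal arms, and about as many for its number of genes. It carried 39.6 peaks per Mb (exact Poisson 95% interval 37.1 to 42.2), against 46.6 on 2L, 43.4 on 3L and 46.1 on 3R. With the 5986 strongest regions of each replicate (its top regions), the ratio of X to the mean of the 3 arms was 0.830, 0.853 and 0.878 in replicates 1 to 3, or 0.854 ± 0.0240 (SD, n = 3). All 3 replicates were below 1. The two-sided exact sign-flip permutation test gave p = 0.25, the smallest that 3 replicates allow, so no comparison of this kind here can reach 0.05.

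Per gene the difference was small. The X had 93.3 protein-coding genes per Mb, against 113 on 2L, 97.4 on 3L and 107 on 3R. It had 424 peaks per 1000 of these genes, against 412, 445 and 432, which places it inside the range of the 3 arms. In the replicates the per-gene ratio was 0.939, 0.964 and 0.993, or 0.965 ± 0.0270 (SD, n = 3, exact sign-flip p = 0.25). Counted after joining overlapping peaks, the X peaks formed 818 intervals, or 34.7 per Mb, against 38.8, 36.2 and 37.6 on 2L, 3L and 3R. The ratio per Mb was then 0.925, above the 0.873 of the IDR peaks as listed. The X intervals covered 382502 bp, or 1.62% of the chromosome, against 1.81%, 1.68% and 1.76% of 2L, 3L and 3R.

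**Figure D1:**
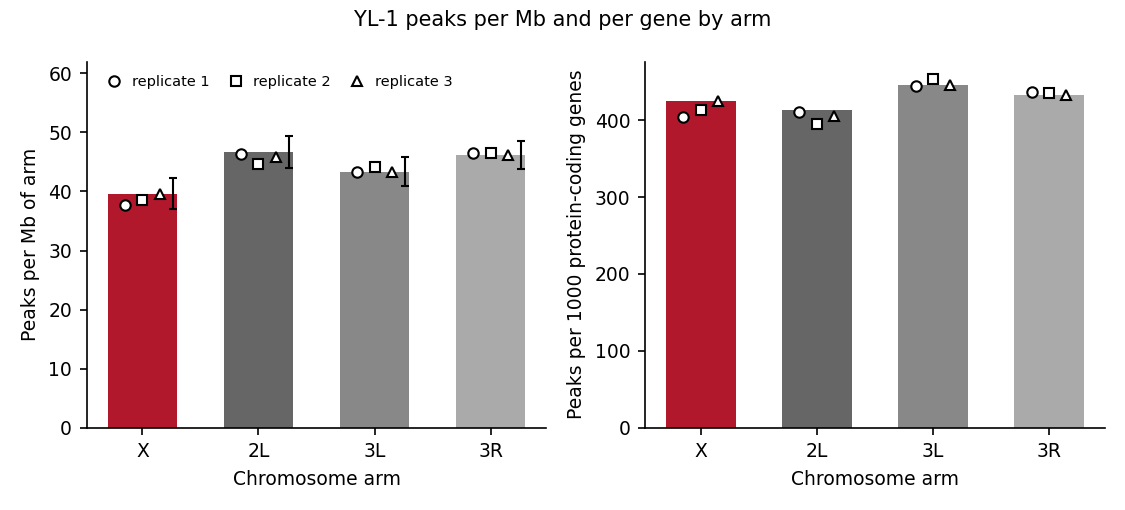
Peaks per Mb (left) and per 1000 protein-coding genes (right) on X, 2L, 3L and 3R. Bars show the IDR list, lines at the bars' right edge on the left panel its exact Poisson 95% interval, and open symbols the top regions of the 3 replicates; X is lowest per Mb at 39.6 and lies within the range of the other arms per gene at 424.

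The shortage of X peaks was at the strong end of the list. Regions were ranked by the authors' signal value, which has no fixed scale and is compared here only within a list. In the list called on the pooled libraries, whose 5986 strongest regions are the IDR peaks, X held 7 of the 100 strongest regions, or 7% (exact binomial 95% interval 2.86% to 13.9%). Its share was 8.50% at ranks 101 to 500, 11.8% at ranks 501 to 1000 and again at 1001 to 2000, and 16.1% at ranks 2001 to 3000. From rank 3001 to the end of the IDR list it lay between 17.5% and 19.4%, and below the list, down to rank 30000, between 17.5% and 18.2%. For comparison, X makes up 17.6% of the bases of the 6 arms used and 15.7% of their protein-coding genes.

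The replicates showed the same order. X held 6.67% ± 0.577 of the 100 strongest regions of a replicate (SD, n = 3) and 8.42% ± 1.26 of ranks 101 to 500. At ranks 3001 to 4000 it held 17.5% ± 0.503. In 10 classes of equal size by signal in the IDR list, X held 49 of the strongest 599 peaks (8.18%) and 117 of the weakest 598 (19.6%).

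**Figure D2:**
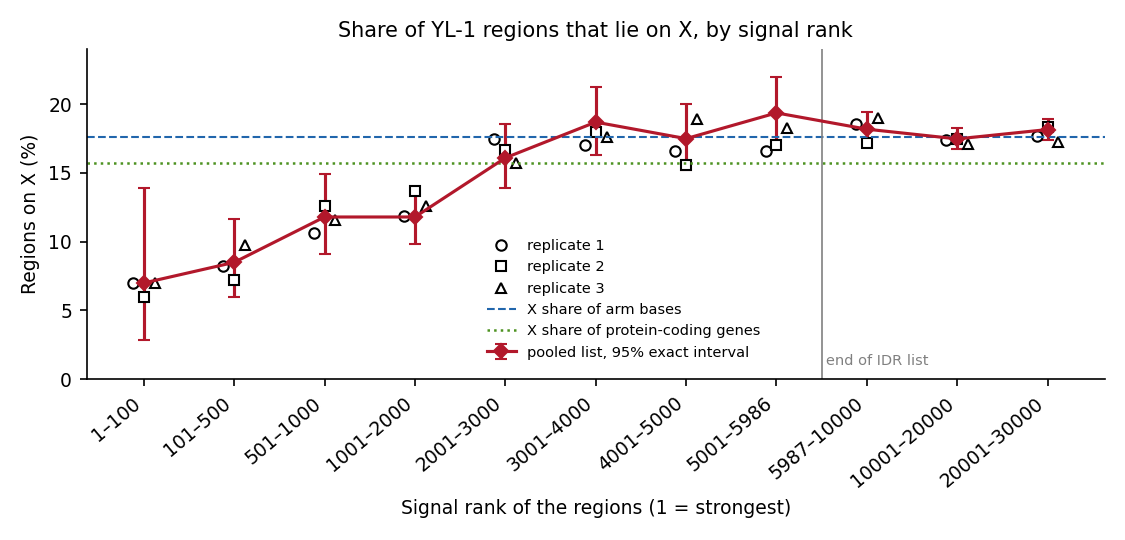
Percentage of regions on X in bins of signal rank, from the strongest (left) to the weakest (right). Diamonds show the pooled list with exact binomial 95% intervals, open symbols the replicates, and horizontal lines the X share of bases and of genes; the share is 7% in the 100 strongest regions and reaches 17.5% or more after rank 3000.

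The signal of X peaks was lower than that of the autosomal arms at promoters, and close to theirs elsewhere. The median over all X peaks was 199, against 222 on 2L, 220 on 3L and 224 on 3R, and the ratio of X to the mean of the 3 arms in the replicates was 0.927 ± 0.0149 (SD, n = 3). At promoter peaks, those with the summit at most 250 bp from the start of a protein-coding transcript (TSS), the median was 203 on X, against 232, 234 and 238. There the ratio was 0.882, 0.907 and 0.884 in replicates 1 to 3, or 0.891 ± 0.0140 (SD, n = 3). At all other peaks the median was 187 on X, against 188, 186 and 188, and the ratio was 1.03, 1.02 and 1.01, or 1.02 ± 0.0108 (SD, n = 3).

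The promoter ratio divided by the ratio outside promoters was 0.875 ± 0.0168 (SD, n = 3). It was below 1 in 3 of 3 replicates (exact sign-flip permutation p = 0.25, two-sided). On X the median outside promoters (187) lies nearer to the lowest signal of the list (137) than the median at promoters (203). The part of this in the class ratio was not tested. In embryos of both sexes the X is present in fewer copies than an autosome. Fewer copies and less YL-1 per copy cannot be told apart here, for all X peaks or for either class.

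A common threshold sets the low end of both sides of these ratios, so the strongest regions of each arm were also taken in equal number per gene. At 0.4 regions per gene (878 on X), the median on X was 0.908 ± 0.0147 of the mean of the other arms (SD, n = 3, below 1 in 3 of 3 replicates, exact sign-flip p = 0.25). The ratio was 0.964 ± 0.00609 at the 10th percentile of signal, 0.867 ± 0.0306 at the 75th and 0.820 ± 0.00567 at the 95th (SD, n = 3). The gap was thus wider at the strong end in this comparison as well.

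By class, promoter regions at 0.3 per gene had a ratio of 0.859 ± 0.0151, and regions outside promoters at 0.1 per gene had 1.04 ± 0.0251 (SD, n = 3). With equal numbers per Mb, regions outside promoters had 0.988 ± 0.0340. The 2 settings outside promoters lie on either side of 1, so no direction is given for them. These settings by class were added after the values were seen.

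**Figure D3:**
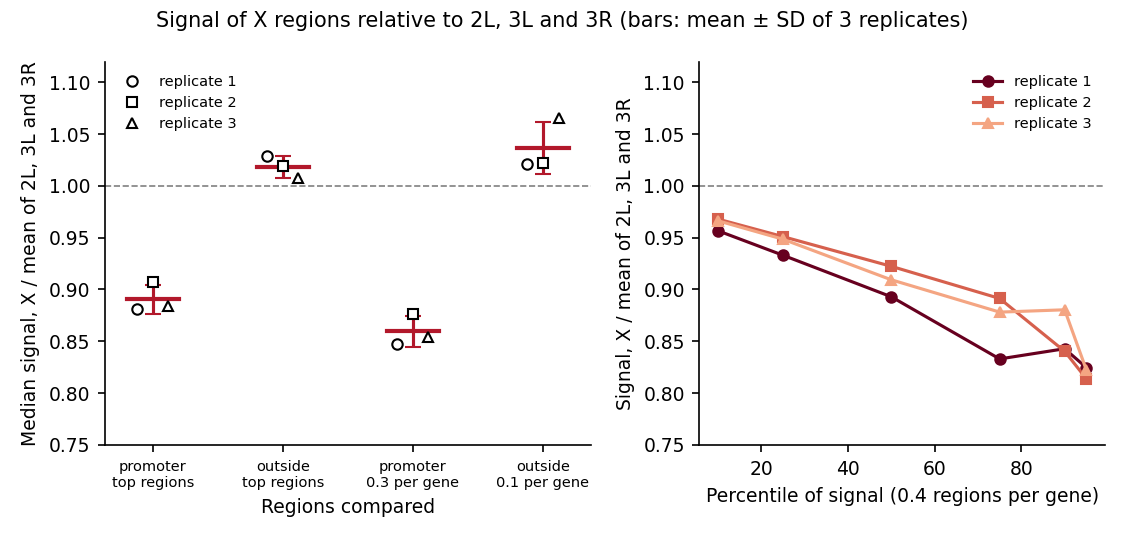
Left, ratio of the median signal on X to the mean of the medians on 2L, 3L and 3R, at promoters and outside them, for top regions and for equal numbers per gene (open symbols, replicates; red, mean ± SD, n = 3). Right, the same ratio by percentile of signal at 0.4 regions per gene; promoter ratios lie between 0.848 and 0.907, those outside promoters between 1.01 and 1.07, and the ratio is 0.964 at the 10th percentile against 0.820 at the 95th.

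X peaks were placed at promoters a little less often. Of the X summits, 648 (69.5%, exact binomial 95% interval 66.5% to 72.5%) were at a promoter, against 72.6% on 2L, 71.4% on 3L and 74.6% on 3R. In the replicates the difference between X and the mean of the arms was -3.11 ± 1.23 percentage points (SD, n = 3, negative in 3 of 3, exact sign-flip p = 0.25). Promoter windows make up 6.03% of X bases, so summits were 11.5-fold more frequent there than their length gives. On 2L, 3L and 3R these windows make up 6.58%, 5.81% and 6.18% of bases. Relative to length, the X value was above that of 2L and below those of 3L and 3R. The lower share on X thus did not hold against every arm once window length was taken into account.

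Introns held a larger share. They took 186 X summits, or 20.0%, against 16.9% on 2L, 16.7% on 3L and 15.7% on 3R, and 20.8% ± 1.97 in the replicates (SD, n = 3). Per Mb of arm the number was close to that of 2L, at 7.90 on X, against 7.87, 7.22 and 7.23. Introns make up 42.8% of X bases, against 38.1%, 38.7% and 44.8%. Intergenic sequence held 58 (6.22%), 5' UTRs beyond the promoter windows 24, 3' UTRs 8 and coding exons 8. Coding exons hold 0.858% of X summits and 14.8% of X bases.

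Among the strongest peaks, a smaller share lay at promoters on X than on 2L, 3L and 3R together. The IDR peaks were divided by signal into 4 classes of equal size. In the highest, 68.5% of the 162 X peaks were at promoters, against 82.8% of 991 peaks on 2L, 3L and 3R. In the other 3 classes, low to high, the shares were 61.1%, 71.1% and 79.4% on X, against 59.1%, 71.2% and 78.0%. These shares have no replicate test, and 2L, 3L and 3R were not counted apart. They draw on the same peaks as the promoter signal described above, and are not a separate result. The median distance from an X summit to the nearest protein-coding TSS was 121.5 bp, against 98 bp, 100 bp and 96 bp on 2L, 3L and 3R, and 147 X peaks (15.8%) lay more than 1000 bp away. A promoter peak lay at 2 or more genes in 145 cases on X (22.4%), against 27.4%, 24.7% and 29.5%. On X these had a median signal of 221, against 200 for those at 1 gene.

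The strongest X peak stood at Ugalt, which encodes a transporter of UDP-galactose into the Golgi. Its signal was 1343, or 6.75 times the X median, and it ranked 4, 4 and 3 in the full lists of replicates 1 to 3. The summit was 43 bp upstream of the TSS. This peak also lies 676 bp from eIF2Bbeta, a subunit of the exchange factor for eIF2, which is not bound by the 250 bp rule.

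The next 3 X peaks were not at protein-coding promoters. The second (signal 1018, ranks 17, 24 and 8 in replicates 1 to 3) lay 5047 bp downstream of the TSS of CG4004, beyond the end of that gene and inside the non-coding gene lncRNA:Vinr. In an intron of CG32772 stood the third, 1275 bp downstream of its TSS (signal 889, ranks 37, 26 and 28). The fourth was in an intron of Tlk, Tousled-like kinase, which acts in chromatin assembly, 2337 bp from the nearest TSS (signal 836, ranks 44, 115 and 23). All 4 strongest X peaks were thus among the 115 strongest regions of every replicate.

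Promoters of housekeeping genes followed. TRAM, a protein of the translocating chain in the endoplasmic reticulum, had a signal of 777, with ranks 157, 116 and 19. The glycolytic enzyme gene Gapdh2 had 718 (ranks 35, 76 and 111). RpS10b, of the small ribosomal subunit, had 696 (ranks 21, 171 and 147), and RpS5a 626 (ranks 72, 162 and 178).

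The other 2 of the 10 strongest lay in introns. At ph-p, polyhomeotic proximal, a Polycomb group gene, the signal was 648 at a summit 489 bp upstream of an annotated TSS and inside a longer transcript. The replicates differed there, with ranks 3277, 133 and 24 in replicates 1 to 3, so this peak owes its place to replicates 2 and 3. A neighbouring peak of ph-p, chrX:2137693-2138106, had a signal of 519 and ranks 153, 518 and 192. Replicate 1 thus had a strong region beside this summit. At Tre1, a receptor that guides germ cell migration, the signal was 636 (ranks 380, 71 and 105).

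Of the 5 strongest X peaks more than 1000 bp from any protein-coding TSS, the peaks near CG4004, CG32772, Tlk and Tre1 are described above. The fifth was 5623 bp downstream of the TSS of Inx2, an innexin of gap junctions, with a signal of 525 and ranks 668, 69 and 404. At the weak end, the last 3 X peaks were nearest to l(1)G0469, Inx2 and CG2200, with signals of 137.4, 137.3 and 137.2. Just outside the IDR list on X stood regions nearest to HDAC4, Tom40 and Myc, with signals of 137.1, 137.0 and 137.0. These last 3 were named for their place at the threshold.

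Fewer X peaks matched top regions of all replicates, by a margin that depended on how deep the replicate lists were read. Of 932, 590 (63.3%, exact binomial 95% interval 60.1% to 66.4%) matched top regions of all 3 replicates, while 242 matched those of 2, 97 those of 1 and 3 those of 0. The background was 72.0% over all arms and 73.0% over 2L, 3L and 3R. Support rose with signal on X and elsewhere. In the weakest of the 4 classes it was 24.7% on X (19.8% to 30.2%), against 33.2% on 2L, 3L and 3R together (30.1% to 36.3%). In the next classes it was 61.2% on X against 64.6%, then 89.3% against 92.3%, and 100% against 99.6% in the strongest. The gap was thus widest in the weakest class, which held 283 X peaks, and smaller in each class above it. Median ranks in the replicates followed the same order, at 3127 ± 113 on X, against 2441 ± 97.7 on 2L, 2497 ± 66.0 on 3L and 2249 ± 28.6 on 3R (SD, n = 3).

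Across X peaks, the signals of 2 replicates had a Spearman coefficient of 0.547 ± 0.0232 (SD, 3 pairs of replicates), against 0.663 ± 0.00786 on 2L, 0.671 ± 0.0301 on 3L and 0.690 ± 0.00358 on 3R. This describes peaks of the same libraries, and fewer X peaks reach a high signal. The difference in support between X and the mean of the 3 arms was -9.56 percentage points with all 3 replicates. It was -6.31, -8.52 and -7.81 points without replicates 1, 2 and 3. Leaving out any replicate also leaves fewer lists to match. The difference shrank to -1.09 points with the 10000 strongest regions of each replicate and to -3.36 with a reciprocal overlap of 50%.

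The share of bound genes on X was close to that of the lowest autosomal arm. A gene is called bound where a summit lies at most 250 bp from any of its TSS, which applied to 683 of 2196 X protein-coding genes, a background of 31.1%. The share was 31.5% on 2L, 33.5% on 3L and 35.4% on 3R, or 33.7% on the 3 together, and 33.4% over all arms. X and 2L lay close to each other in the replicates too, at 29.6%, 28.9% and 29.6% on X and 31.2%, 28.8% and 30.5% on 2L. In the replicates the difference between X and the mean of the 3 arms was -3.23, -2.21 and -2.80 percentage points, or -2.75 ± 0.512 (SD, n = 3, exact sign-flip p = 0.25). With windows of 500 bp and 1000 bp it shrank to -1.15 and -0.39 points in the IDR list. Of the bound X genes, 420 (61.5%) were bound in all 3 replicates too, against 72.0% on 2L, 71.9% on 3L and 74.2% on 3R.

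Of the genes for the Domino/Tip60 complexes, 4 lie on X, and 3 of them were bound, beside the X background of 31.1%. On 2L, 3L and 3R 8 of 9 were bound. Where several summits lie at a gene's start, the strongest is given. Tip60, the acetyltransferase itself, had a signal of 317 at 246 bp from its TSS, at a summit that is nearer to tyf (176 bp). An overlapping peak with a summit 47 bp from the TSS of Tip60 had a signal of 229. Both matched the same replicate regions, at ranks 1646, 2697 and 646 in replicates 1 to 3. Act5C, a cytoplasmic actin found in the complexes, had 186 (ranks 3808, 3319 and 4229). Ing3, a reader of histone methylation, had 165 (ranks 5628, 3406 and 6132) and was bound in 2 replicates. Arp6 was not bound, and its nearest summit was 2218 bp away. Tip60 was the only 1 of the 4 with a peak above the X median of 199 at its start.

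Of 9 X genes listed for dosage compensation and sex determination, 5 were bound, beside the background of 31.1% of X protein-coding genes. On 2L, 3L and 3R 7 of 8 were bound. The RNA genes roX1 and roX2 had summits 92 bp and 44 bp from a TSS. The roX1 peak had a signal of 218 and ranks 3051, 1892 and 4018. At roX2 the signal was 151 with ranks 3717, 10017 and 6882, so it was a top region in replicate 1 alone. The gene mof, for the acetyltransferase of the MSL complex, had 229 (ranks 2102, 2477 and 4101). Sxl had 213 at 139 bp from a TSS (ranks 4171, 2806 and 2472).

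The splicing factor gene snf, which is needed for Sxl splicing, had 236 (ranks 2870, 4620 and 2122) and shares that peak with Cdk7. The X-linked signal genes that count X dose in the early embryo, sisA, sc, upd1 and run, were not bound. Their nearest summits were 3027, 91683, 62140 and 35548 bp away. The bound members of this list thus had signals of 151 to 236, and that of roX2 alone was below the X median.

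Genes of protein synthesis included the strongest X lists. All 15 X genes of cytoplasmic ribosomal proteins were bound, also in each replicate alone, against the X background of 31.1%, and 50 of 56 were bound on 2L, 3L and 3R. RpS10b, RpS5a and RpL17, which had a signal of 599, led. The median of the 15 was 457 on X, against 522 for the 50. The ratio of these medians in the replicates was 0.941, 0.800 and 0.828, below 1 in 3 of 3. The autosomal median is over the members that passed the threshold, and 6 of 56 did not.

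Of 11 mitochondrial ribosomal protein genes on X, 7 were bound, led by mRpL16 (300, at a peak shared with trr, a histone methyltransferase gene), mRpS14 (241) and mRpL38 (222). Of 3 aminoacyl-tRNA synthetase genes, 3 were bound, namely LysRS (273), ArgRS (183) and HisRS (161), and HisRS was bound in 1 replicate. Translation factors gave 3 of 7, with eIF4H1 (298), eIF2Bepsilon (285) and eIF2alpha (231). The numbers in brackets are signals in the IDR list. Beside these counts, the X background was 31.1%. On 2L, 3L and 3R the 3 lists had 40 of 50, 15 of 21 and 19 of 31 bound, and no difference was tested. The peaks of mRpS14, LysRS, ArgRS, HisRS and eIF2Bepsilon, like those of COX6B, ND-MNLL, Rpt4 and MED22 named in the next lists, also lie at the start of another gene and cannot be assigned to a single gene.

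Of 12 genes for respiratory complexes and ATP synthase, 11 were bound. They were led by COX6B (signal 465), of cytochrome c oxidase, then ND-B18 (393) and ND-MNLL (351), of complex I. ND-B14.5A was not bound. Of 6 proteasome genes, 3 were bound, with the regulatory ATPase genes Rpt4 (374), Rpt3 (200) and Rpt6 (170). The 3 others were Rpn13R, Prosbeta2R1 and Prosalpha4, chosen here as the rest of the list, with summits 47146, 44863 and 741 bp away. On 2L, 3L and 3R the respiratory and proteasome lists had 36 of 56 and 15 of 29 bound. The X background was 31.1%, and no difference was tested.

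Lists of the nuclear machinery had between 2 and 4 bound members on X, where the background was 31.1% of protein-coding genes. RNA polymerase II, general factors and Mediator gave 4 of 7, with Polr2A, the largest subunit of the polymerase, at a signal of 358, Trf2 at 157 and MED22 at 148. Spliceosome genes gave 2 of 4, snf (236) and U2af50 (218). Cell cycle and replication genes gave 3 of 8 (37.5%), with Cdk7 (236), Mcm6 (183), a subunit of the replicative helicase, and rux (174), an inhibitor of cyclin-dependent kinase. On 2L, 3L and 3R the same 3 lists had 39 of 49, 19 of 26 and 26 of 37 bound. No difference was tested.

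Of 40 X genes listed for patterning and signalling, 10 (25%) were bound in the IDR list, beside the X background of 31.1%, and 7, 10 and 6 in the replicates. The difference from the background was not tested. The 3 strongest were sgg (signal 407), the kinase of the Wingless pathway, fz4 (296), a Frizzled receptor, and csw (282), the phosphatase of receptor tyrosine kinase signalling. Of 16 neuronal genes, 2 (12.5%) were bound, each in 1 replicate. These were rut (142), an adenylyl cyclase, and inaE (141), a lipase of phototransduction. For nonA, dnc and elav, which count as not bound, the nearest summits lay 254, 274 and 286 bp away, just past the 250 bp rule. Those summits had signals of 155, 299 and 531, so the low neuronal count depends on the window. Of 11 genes taken by name for yolk, chorion and eggshell, 1 (9.09%) was bound. It was fs(1)N (152), at a peak shared with DAAM, and the name pattern also takes in the centriole gene Cp110. On 2L, 3L and 3R the neuronal and yolk lists had 0 of 8 and 1 of 10 bound, and no difference was tested.

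No summit lay at any of 31 X genes for chemoreceptors and odorant-binding proteins, 8 for cuticle proteins or 13 Stellate repeats. A count of 0 allows shares of up to 9.68%, 37.5% and 23.1%, by 3 counts of each total. The X background was 31.1%, so the count for the 8 cuticle genes does not place them below it. No X member of these lists was bound in any replicate either, and on 2L, 3L and 3R the IDR list had none at 88 cuticle and 125 chemoreceptor and odorant-binding genes. Stellate copies are near-identical, and reads from them may not place uniquely, which the files do not show.

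For 11 of the lists with bound members on both sides, from the Domino/Tip60 list to the cell cycle list, the median signal of bound members was lower on X than on 2L, 3L and 3R in the IDR list. Their ratios ran from 0.533 for the RNA polymerase II and Mediator list to 0.877 for cytoplasmic ribosomal proteins. Over all promoter peaks the ratio of X to the mean of the 3 arms was already 0.867. A ratio below 1 is thus not particular to these lists. The yolk, chorion and eggshell list, with 1 bound member on each side, had 0.274 and is not among the 11. In the replicates the mean ratio of these lists lay between 0.620 and 0.906, and 4 of them had a ratio above 1 in at least 1 replicate. Lists with 2 to 4 bound X members rest on few peaks.

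The DNA under X promoter peaks differed from that on the other arms in simple repeats. Windows of 301 bp centred on summits were searched on both strands for 7 motifs. These were the DRE (TATCGATA), the core of motif 1 (GGTCACAC), an E-box (CAGCTG), a GA repeat (GAGAGAGA), a CA repeat (CACACACA), a TATA box (TATAAA) and the core of motif 6 (GTATNTTT). No motif contains another, though matches may overlap. A CA repeat was found in 100 of 648 X promoter peaks, or 15.4% (exact binomial 95% interval 12.7% to 18.4%), against 7.41% on 2L, 5.75% on 3L and 7.52% on 3R. In the replicates it was in 15.4% ± 0.510 of X promoter regions and in 7.35% ± 0.680 on average over the arms (SD, n = 3, higher on X in 3 of 3, exact sign-flip p = 0.25).

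Part of this is found along the whole chromosome. Windows of the same length tiled along the arms held a CA repeat in 8.29% of cases on X, against 5.60%, 5.15% and 5.85% on 2L, 3L and 3R. Around the outermost starts of all protein-coding genes the shares were 5.51% on X, against 4.48%, 3.83% and 4.30%. At starts of bound X genes the share was 6.0%, and 5.29% at those of other X genes. At the outermost gene starts the gap between X and the other arms was thus narrower than in the summit windows. Around the starts nearest to promoter peaks it was wider than at the outermost starts, at 10.5% on X, against 6.66%, 5.17% and 4.71%. Windows around starts reach 150 bp to each side, short of the positions described next.

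The repeats lay downstream of the start. Counted from the TSS nearest to each promoter summit, 14.0% of X promoter peaks had a CA repeat 150 to 299 bp downstream, against 8.29% on 2L, 7.59% on 3L and 8.98% on 3R. In the 150 bases upstream the share was 4.48% on X, against 2.89%, 2.53% and 2.27%. The arms thus shared the position and differed in the level. X promoter peaks with a CA repeat had a median signal 1.08 ± 0.0347 times that of those without in the replicates (SD, n = 3).

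The GA repeat was rarer than the CA repeat, and also more frequent in X promoter windows. It was in 30 of the 648 X promoter windows, or 4.63% (3.15% to 6.54%), against 1.51%, 1.95% and 1.99% on 2L, 3L and 3R, and in 3.99% ± 0.677 of X regions against 2.10% ± 0.493 in the replicates. Over tiled windows X held it in 2.29% of cases, against 1.53%, 1.61% and 1.56%. Around all protein-coding starts it was not higher on X, at 2.64%, against 3.12%, 2.81% and 2.46%. At peaks more than 1000 bp from a TSS, where 147 X windows were searched, a CA repeat was in 17.0% (11.3% to 24.1%), against 9.74%, 8.79% and 7.81%.

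The DRE, the binding site of the promoter factor Dref, was in 17.6% of X promoter windows (14.7% to 20.7%), against 12.4%, 11.6% and 13.7%. Replicates gave 16.7% ± 0.544 on X against 12.1% ± 0.781 on average over the arms (SD, n = 3, higher on X in 3 of 3, exact sign-flip p = 0.25). It lay upstream, with 18.1% of X promoter peaks having a match in the 150 bases before the TSS, against 12.3%, 12.4% and 14.1%. Around all protein-coding starts the order was the same, at 12.7% on X, against 8.02%, 6.72% and 8.18%. Over tiled windows it was 1.06% on X, against 0.759%, 0.784% and 0.699%. At the starts of bound X genes the share was 22.5%, and 8.26% at those of other X genes. This contrast was not particular to X. The shares were 17.5% and 3.63% on 2L, 13.9% and 3.08% on 3L, and 17.3% and 3.21% on 3R.

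The TATA box was less frequent in X promoter windows, at 27.8%, against 39.1%, 36.4% and 35.4%, as it was around all starts, at 33.6%, against 43.2%, 43.8% and 39.1%. The median GC content of the X promoter windows was 42.5%, against 39.5%, 39.9% and 40.2%, and its part in this was not tested. The E-box was in 22.8% of X promoter windows, against 26.3%, 24.6% and 21.9%, and in the replicates the difference was -2.62 ± 0.488 percentage points (SD, n = 3, lower in 3 of 3, exact sign-flip p = 0.25). The core of motif 1 was in 13.4% of X promoter windows, against 13.7%, 16.2% and 14.0%, and in the replicates the difference was -1.67 ± 0.719 points (lower in 3 of 3). For the core of motif 6, at 16.4% on X against 16.3%, 16.9% and 17.6%, it was 0.0661 ± 1.19 points. A match is a description of the letters and not of binding.

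**Figure D4:**
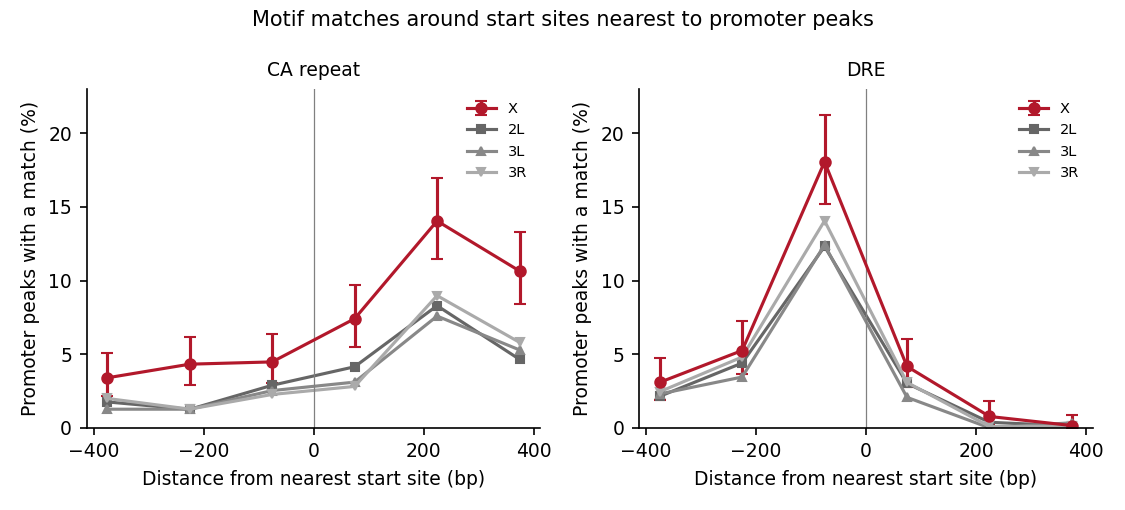
Percentage of promoter peaks on X, 2L, 3L and 3R with a CA repeat (left) or a DRE (right) in bins of 150 bp around the nearest TSS; negative distances are upstream, and bars on the X points are exact binomial 95% intervals. CA repeats are highest 150 to 299 bp downstream, at 14.0% on X, and the DRE in the 150 bases upstream, at 18.1% on X.

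Along X, peaks followed the genes. In the 23 full windows of 1 Mb, the number of peaks ran from 4 to 81 with a median of 38. Across these windows the Spearman coefficient between peaks and protein-coding genes was 0.869, a description of windows of 1 chromosome. The densest window was chrX:6000001-7000000 with 81 peaks, 71, 70 and 78 in the replicates, where 56 of 111 genes (50.5%) were bound.

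Of the windows toward the right end of X, that at chrX:20000001-21000000 had 12 peaks, with 9 of 81 genes bound. Next to it, chrX:21000001-22000000 had 26 peaks, with 22 of 55 genes (40%) bound. The window chrX:22000001-23000000 had 4 peaks, the fewest of the 23, with 4 of 44 genes bound. The window chrX:14000001-15000000, which includes the 13 Stellate repeats, had 16 peaks and 14, 16 and 19 in the replicates. Of its 88 genes 9 (10.2%) were bound. The longest stretch of X between 2 peaks was 824665 bp, chrX:21630287-22454951.

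**Figure D5:**
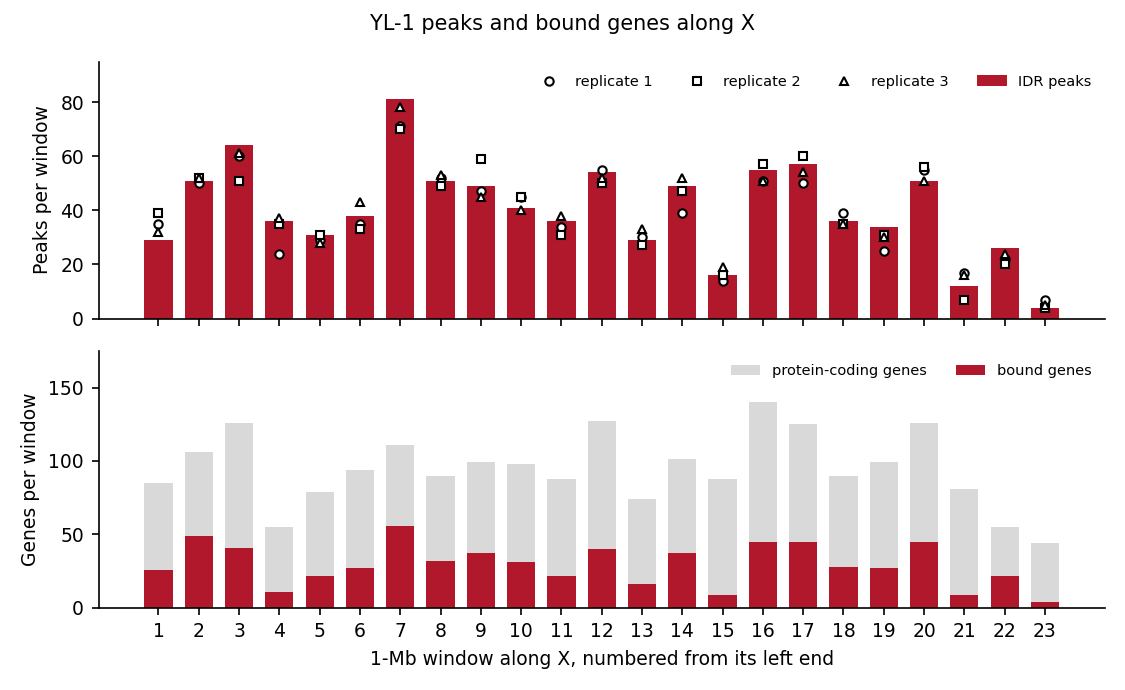
IDR peaks (bars) and replicate top regions (open symbols) per 1-Mb window of X, numbered from its left end (top), and protein-coding genes (grey) with those bound (red) in the same windows (bottom). Window 7 is highest with 81 peaks and window 23 lowest with 4.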

How the data were processed

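The deposited files are region lists in narrowPeak form, made by the authors for each replicate, for the pooled libraries and after the IDR threshold, in dm6 and dm3, against a control library set, per the labels. Chromatin was sonicated to 200 to 800 bp, per the labels. Aligner and peak caller: not given in the sources used here. Region strength is the deposited signal value, whose scale differs between lists, so only ratios within a list were used. The deposited −log10 q-value was 4.13 for every IDR peak and was not used. No counts are given, so depth is unknown, and intervals cover the counting of peaks only. The control libraries were not analysed here.

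From the lists, 1-based summits were placed in classes with Ensembl release 115. A summit took the first class that applied, in the order promoter, 5' UTR, 3' UTR, coding exon, then intron, else intergenic. Overlap meant 1 bp or more. Arm bases and sequence came from RefSeq, Release 6. Gene lists (17) and motifs (7) were chosen with earlier results of these data known, as were the peaks described.

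The text names the nearest genes of the 10 strongest, 5 strongest distal and 3 weakest X peaks, all X members of the Domino/Tip60 and dosage lists, and the 3 strongest bound X members of other lists. Other genes were named after their values were seen. The labels call the replicates biological, so they are the units of the tests. An exact sign-flip p of 0.25 says only that all 3 replicates had the same sign, and does not measure their spread. The code was tested on simulated data. Python 3.11.15 was used with pandas 2.3.3, numpy 2.4.6, matplotlib 3.10.9 and scipy 1.17.1.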

Additional observations from a re-analysis of the deposited data

How the results depend on the processing

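Of 47 alternative values, 21 moved by less than the spread between replicates or the counting interval, 25 moved by more and 1 changed direction. Leaving out 1 of 3 replicates cannot move their mean by as much as their SD. Means of this kind therefore count among the 21 by construction and are no sign of stability. They make up most of the 21. Signal at equal density (0.908) was 0.867 at 0.2 regions per gene, 0.944 at 0.6 and 0.856 with equal numbers per Mb. With settings added after seeing the data it was 0.859 for promoter regions, 0.988 outside promoters per Mb and 1.04 outside promoters per gene, the value that changed direction. In the IDR list the per-Mb ratio (0.873) was 0.925 with overlapping peaks joined, 0.987 per gene, 0.684 above the median signal and 0.758 for peaks in all 3 replicates. The signal ratio (0.896) was 0.869 with peaks joined, 0.925 for peaks in all 3 replicates, 0.867 at promoters and 0.999 outside. The promoter difference (-3.33 points) was -5.52 above the median signal, -5.66 with a 100 bp window and -1.78 with 1000 bp. For bound genes (-2.38 points) it was -6.20 above the median signal, -5.18 for peaks in all 3 replicates, and -3.10, -1.15 and -0.39 with 100, 500 and 1000 bp. The difference in support (-9.56 points) was -3.36 with a reciprocal overlap of 50%, and -13.8 and -1.09 with 3000 and 10000 top regions.

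Leaving out 1 replicate gave 0.842 to 0.866 for the per-Mb ratio, 0.919 to 0.934 for signal, 0.901 to 0.916 at equal density, -3.53 to -2.41 points for promoters, -3.02 to -2.51 for bound genes and -8.52 to -6.31 for support. In dm3, for which arm lengths were not used, X held 15.4% of peaks, against 15.6% in dm6. No paired analysis was possible because there is 1 group, so replicate numbers pair no samples; arms were set against each other within each replicate. The cause of these moves was not tested. With 3 replicates no sign-flip test can reach 0.05, and without counts the depth cannot be weighed.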
